A study of Mus musculus with 4 samples.

Results

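The translation initiation and elongation factors are the proteins that place a ribosome on the start codon of an mRNA and then move it along the coding sequence. Their genes were taken by symbol, as the entries beginning with Eif1 to Eif6 or with Eef1 or Eef2, without the eIF2 kinases (Eif2ak) and without Eef1e1. This gave 60 of the 27189 gene entries in the tables, under 59 symbols, since Eif4ebp3 has 2 entries. The values came from large ventral horn motor neurons of the mouse spinal cord, whose cell bodies were cut out with a laser from stained frozen sections, and from the polyadenylated RNA of these cells. The 4 libraries comprised 2 of wild-type SOD1-YFP mice (strain 592) and 2 of G85R SOD1-YFP mice (strain 737), all aged 3 months and on a mixed C57BL/6J x SJL/J background. Every animal carried a human SOD1 gene fused to yellow fluorescent protein, as a genomic fragment with its own regulatory sequence, and no library came from a mouse without the transgene. The G85R form is an amyotrophic lateral sclerosis mutation, and the comparison asks whether motor neurons that express it differ in RNA before paralysis begins.

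Each library was 1 animal, with RNA of 3000 to 4000 cell bodies and an RNA integrity number above 8, so n = 2 for each genotype throughout. The G85R strain carried many more transgene copies than the wild-type strain, and each genotype was a single strain, so genotype, copy number and strain cannot be told apart. Cell bodies of G85R mice with large fluorescent aggregates were left out of the capture. Levels are RPKM (reads per kilobase of transcript, scaled to a fixed number of mapped reads), which can be compared between genes because they are per length.

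Initiation starts on the small ribosomal subunit. eIF2 brings the initiator tRNA, eIF2B recharges eIF2 with GTP, eIF1 and eIF1A keep the subunit open for scanning, eIF3 is the large scaffold, and eIF4E, eIF4G and eIF4A bind the mRNA cap and unwind the leader. eIF5 and eIF5B complete subunit joining, eEF1A delivers each aminoacyl-tRNA, and eEF2 translocates the ribosome. Neurons are known for a switch of eEF1A: most cells use Eef1a1, whereas mature neurons, heart and skeletal muscle use its paralogue Eef1a2.

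How far a read can be assigned to a single factor gene depends on sequence copies elsewhere in the genome, and these differ sharply within the family. Eef1a1 (Entrez Gene 13627, chr9:78326256-78336958, minus strand, NCBIM37, the assembly that the authors' mm9 build names) has 29 other loci that share at least one 75-base window with its transcript, and 93.4% of its windows occur elsewhere with at most 2 mismatches. Eef1a2 (13628, chr2:180882358-180891719, minus strand) has no such locus. The 3 sequences that follow, read from the NCBIM37 genome and its GENCODE transcripts, show this on the same 30 coding bases, positions 648 to 677 from the start codon, in exon 5 of both genes, at chr9:78327526-78327555 for Eef1a1 and chr2:180885719-180885748 for Eef1a2. The copy lies at chr2:40411894-40411923 on the plus strand, inside a stretch that matches 76.1% of the Eef1a1 windows. Capitals mark bases that differ from Eef1a1.
Eef1a1: cacccgcaaagatggcagtgccagtggcac
Eef1a1 copy: cacccgcaaagatggcagtgccagtggcac
Eef1a2: AGAGcgTaaGgaAggAaAtgcAagCggcGT
These 30 bases were chosen, within windows that match the copy, as those where Eef1a2 differed most, so they are not typical of the gene. The copy had 0 differences from Eef1a1 here and Eef1a2 had 13. Over their coding sequences Eef1a1 and Eef1a2 were identical at 1108 of 1389 bases (79.8%), so a 75-base read tells the paralogues apart but often cannot tell Eef1a1 from its copies.

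The eIF4A helicases form the second such pair. Eif4a1 (13681, chr11:69480438-69485925, minus strand) has 86.5% of its windows elsewhere, over 10 loci, against 40.7% for Eif4a2 (13682, chr16:23107517-23114209, plus strand). The 30 coding bases shown are positions 280 to 309 of Eif4a1, in exon 4 at chr11:69483671-69483700, the copy at chr1:60761055-60761084 on the plus strand, and positions 286 to 315 of Eif4a2, in exon 4 at chr16:23109267-23109296. Capitals mark bases that differ from Eif4a1.
Eif4a1: attgaattagatctaaaggccactcaggct
Eif4a1 copy: attgaattagatctaaaggccactcaggct
Eif4a2: TtGgaGAtTgaGTtCaaggAGacCcaAgcA
These bases were chosen in the same way, within windows that match the copy and where the paralogue differed most. The copy was identical here and the paralogue had 13 differences. Over the coding sequences Eif4a1 and Eif4a2 were identical at 937 of 1221 bases (76.7%). Levels of genes with near-identical copies are uncertain, because reads of the gene and of its copies can be lost or exchanged.

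The factors were among the well-expressed genes of these motor neurons. Of the 60 entries, 56 were above 0 in all 4 libraries and 2 were listed at 0 in all of them (Eif2s3y and the second Eif4ebp3 entry). The median of the members' mean RPKM was 26.8, against 2.88 over all genes above 0, with 10 members at 100 or more, 28 from 10 to 100 and 22 under 10. Together they held between 0.962% and 1.03% of the summed RPKM of a library while making up 0.221% of the entries. Eef1a2 alone held 25.6% to 27.8% of the members' sum, and was followed by Eef2, Eif1b, Eif4h, Eif5a and Eif4a2.

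**Figure D1:**
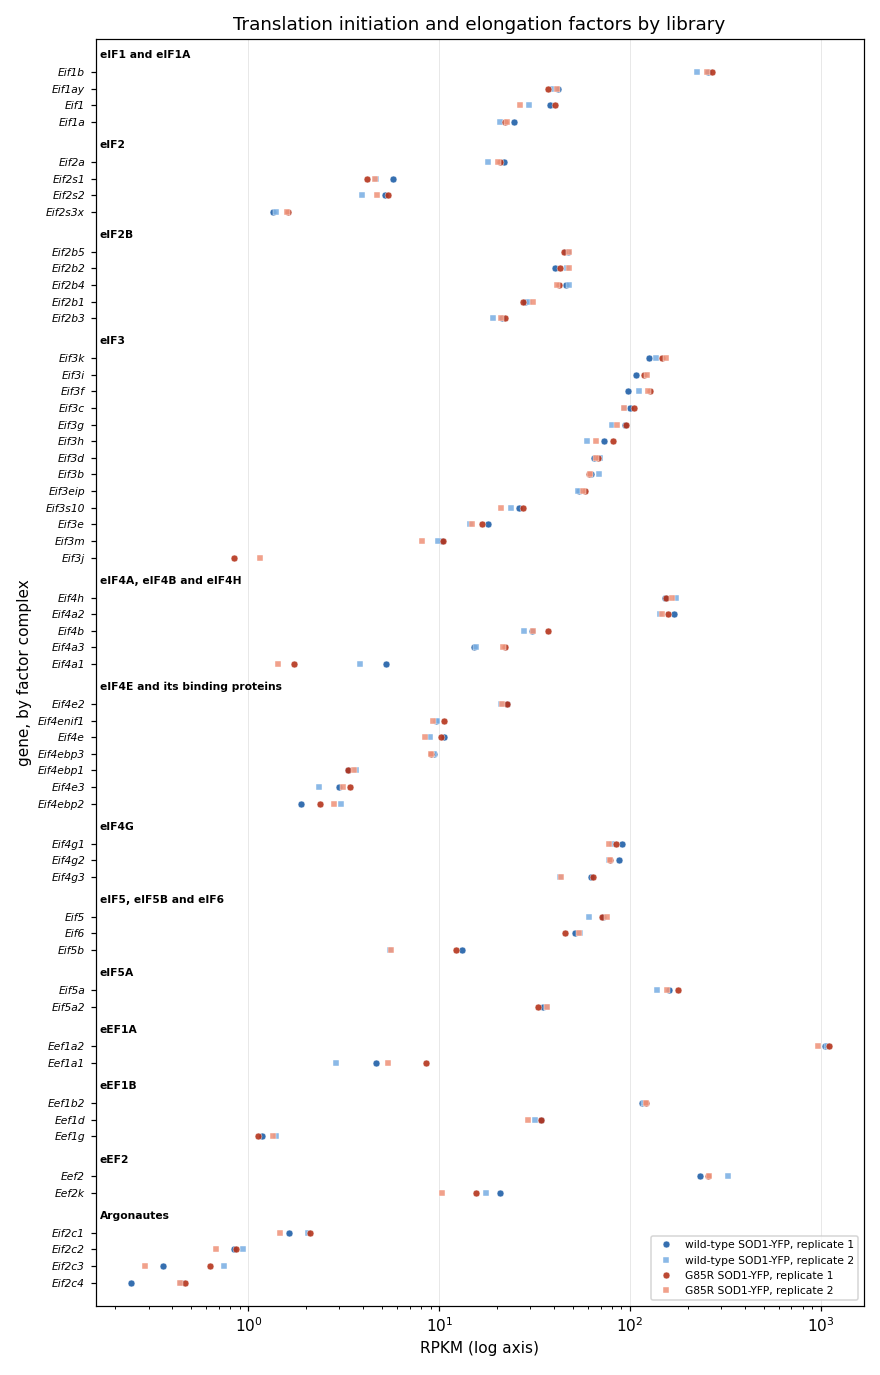
RPKM (log axis) of the factor genes with a mean of at least 0.1, in rows grouped by factor complex, with 1 point for each library: blue for wild-type SOD1-YFP, red for G85R SOD1-YFP, circles for replicate 1 and squares for replicate 2. Values of 0 (both wild-type libraries of Eif3j) are not drawn. Members span from under 1 RPKM to 1096 RPKM (Eef1a2), and for most the 4 points lie close together, with Eif4a1, Eef1a1, Eef2k and Eif5b more spread.

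Between the genotypes most factors differed little, with a single call. Eif4a1, an RNA helicase of the cap-binding complex, was lower in G85R motor neurons, and no other factor passed the test in the fit by genotype alone. The median log2 fold change (G85R minus wild-type, on log2(RPKM + 0.1)) of the 53 members with a mean RPKM of at least 1 was -0.0075, against -0.021 over all 11530 genes tested. The median size of the change was 0.070 against 0.12, and 44 of the 53 members (83.0%) lay within 0.2 on the log2 scale, compared with 68.8% of all genes. The 7 entries below that level were not tested (Eif2c2, Eif2c3, Eif2c4, Eif3j, Eif4e1b, Eif2s3y and the second Eif4ebp3). In bulk RNA of this kind, fewer cells of a type and less RNA per cell cannot be told apart.

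limma called 1 of 53 members (1.89%) at an adjusted p under 0.05, where it called 74 of 11530 genes (0.642%), 43 of them lower in G85R (0.373%) and 31 higher (0.269%). At an unadjusted p under 0.05 there were 5 members (9.43%), namely Eif4a1, Eif4a3, Eef1a1, Eef2k and Eif3f, against a background of 11.0%. The genotypes did not overlap for 15 members (28.3%), 9 higher and 6 lower in G85R, meaning that the lower value of one genotype exceeded the higher of the other, where the background was 41.2% (17.3% higher and 23.9% lower). By direction 26 members were higher and 27 lower, with 45.3% of all genes higher. The log-linear likelihood ratio test called 0 members at an adjusted p under 0.05, 1 member (Eif3f) at an unadjusted p under 0.05, and 62 of all 27189 genes (0.228%). It was run on RPKM rounded to whole numbers and not on reads, so a gene of a few RPKM can hardly pass it.

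Over the tested members the median absolute log2 difference was 0.18 between the wild-type libraries and 0.15 between the G85R libraries. Across genotypes it was 0.091 and 0.11 for libraries of the same replicate number and 0.14 and 0.18 for the other pairs. The standard error of a member's log2 fold change had a median of 0.12 and a range of 0.092 to 0.46, so differences of the size seen in most members are within the error.

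**Figure D2:**
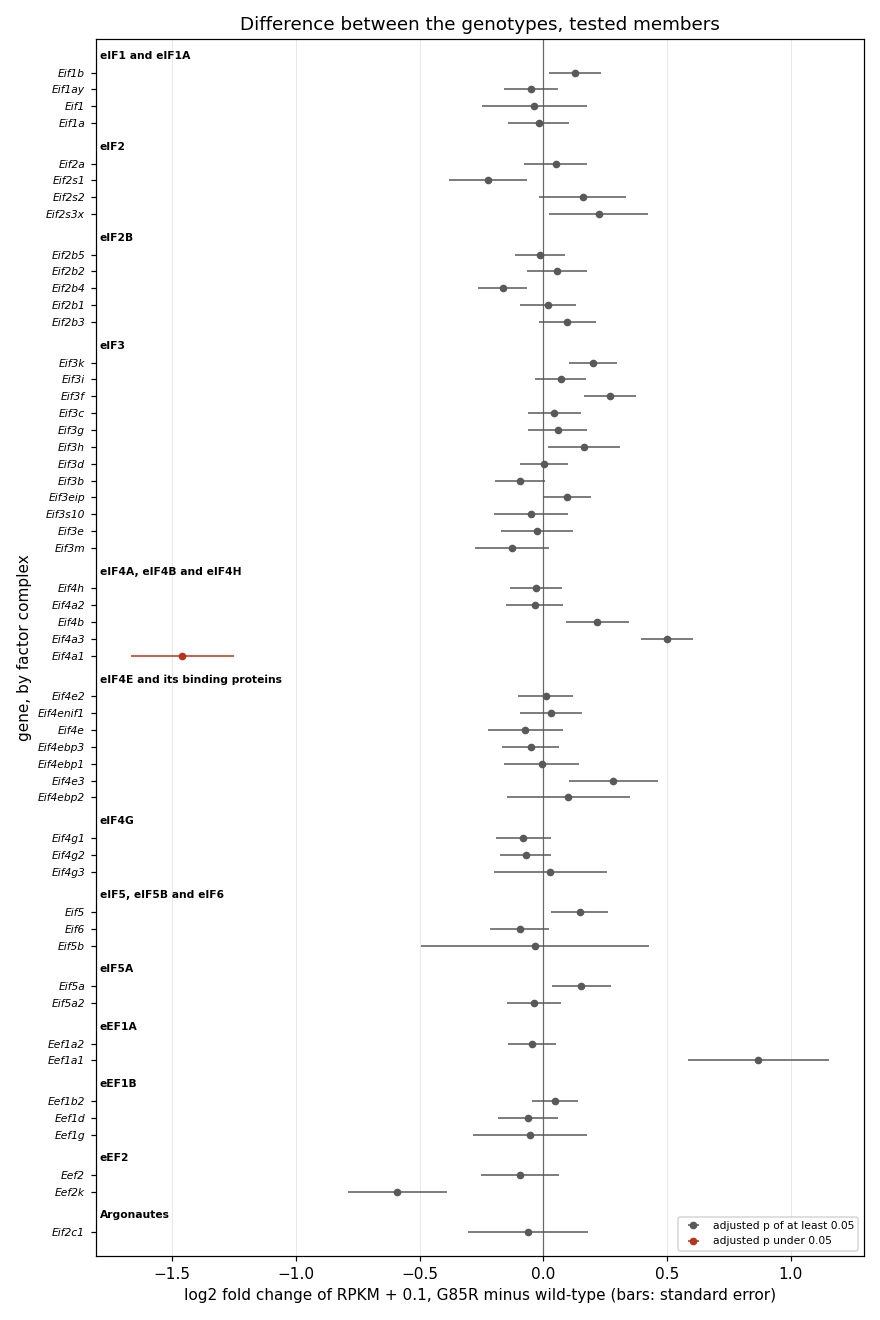
Log2 fold change of RPKM + 0.1 (G85R minus wild-type, horizontal axis) for the 53 tested members, in rows by factor complex, with bars for the standard error of the limma fit. Most members lie within 0.2 of 0. Eif4a1 (red, adjusted p under 0.05) is at -1.46, and Eef1a1 (0.87), Eef2k (-0.59) and Eif4a3 (0.50) are the other members furthest from 0.

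Of the factors of start-site selection Eif1b had the highest level. This close relative of Eif1, the factor that checks the start codon, was measured at 256 and 223 RPKM in wild-type mice and at 270 and 252 RPKM in G85R mice. The genotypes overlapped, with a log2 fold change of 0.13 (SE 0.11, limma adjusted p = 0.748). Eif1 itself was at 38.1, 29.6, 40.3 and 26.6 in the same order, so that Eif1b was at 6.70 to 9.48 times the level of Eif1 in the 4 libraries. Eif1 has 75.1% of its windows elsewhere and Eif1b 0%, so the size of this ratio is uncertain. The eIF1A genes, Eif1ay (an entry that the annotation names Eif1ax, on the X chromosome) and Eif1a, had mean levels of 40.1 and 22.6, with log2 fold changes of -0.052 and -0.020. None of the 4 genes had genotypes that stood apart, where the share over all tested genes was 41.2%.

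The eIF2 subunits, which form the ternary complex with initiator tRNA, were low in the tables. Eif2s1, the alpha subunit that stress kinases phosphorylate, was at 5.71 and 4.67 RPKM (wild-type) and 4.18 and 4.63 (G85R), the G85R values being below both wild-type values (log2 fold change -0.23, SE 0.16, limma adjusted p = 0.689). Eif2s2, the beta subunit, had a mean of 4.80 with overlapping genotypes. Eif2s1 has 32.8% and Eif2s2 50.7% of windows elsewhere, so their low levels are uncertain. Eif2s3x, the X-linked gamma subunit, was at 1.34 and 1.39 in the wild-type pair and 1.62 and 1.60 in the G85R pair (log2 fold change 0.22, SE 0.20, adjusted p = 0.771). Its windows occur elsewhere for 96.0%, the highest share in the family, so its low level is uncertain. Its Y-linked counterpart Eif2s3y was listed at 0 in all 4 libraries, as were the Y-linked genes Ddx3y, Uty and Kdm5d (listed as Jarid1d), while the labels give no sex. Eif2a, a separate initiation factor that can bring initiator tRNA without eIF2, was the highest of this group at 21.8, 18.1, 20.8 and 20.3 (log2 fold change 0.050, adjusted p = 0.943).

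The 5 subunits of eIF2B, the exchange factor that limits initiation when eIF2 is phosphorylated, stood at similar levels, with means between 20.9 (Eif2b3) and 46.6 (Eif2b5). Eif2b5, the catalytic epsilon subunit, was at 47.4 and 46.2 RPKM in wild-type against 44.9 and 47.9 in G85R, which is level within the error (log2 fold change -0.013, SE 0.10). Eif2b4, the delta subunit, was at 45.9 and 47.9 (wild-type) and 42.2 and 41.4 (G85R). Its genotypes did not overlap, and the difference of -0.17 (SE 0.099) did not pass (limma adjusted p = 0.620). The summed RPKM of the complex was 187 ± 4.41 (SD, n = 2) in wild-type and 184 ± 6.90 in G85R, and all 5 genes were among the 20 members without a window elsewhere.

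eIF3, the scaffold of 13 measured genes, was the complex with the highest summed level after eEF1A. Its sum was 836 ± 6.48 RPKM (SD, n = 2) in wild-type and 896 ± 27.4 in G85R, a ratio of 0.099 on the log2 scale. Of its 12 tested genes 8 were higher and 4 lower in G85R, 0 were called, beside a background of 0.642%, and 4 had genotypes that did not overlap, beside 41.2% (Eif3k, Eif3f and Eif3eip higher, Eif3b lower), with a median log2 fold change of 0.051. Eif3k, a small peripheral subunit and the most abundant, was at 126 and 137 in the wild-type pair and 147 and 154 in the G85R pair (0.20, SE 0.098, limma adjusted p = 0.529). Eif3f was at 97.4 and 112 in wild-type against 127 and 125 in G85R (0.27, SE 0.11, adjusted p = 0.423). Eif3b, a core subunit, went the other way at 62.5 and 68.9 against 61.0 and 61.9 (-0.095, SE 0.10, adjusted p = 0.826). None of these 3 genes passed the test.

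Within eIF3 the levels ranged widely. Eif3k, Eif3i, Eif3f, Eif3c and Eif3g had means from 88.4 to 141 RPKM, Eif3h, Eif3d, Eif3b and Eif3eip (Eif3l in the annotation) from 55.5 to 70.1, and Eif3s10 (Eif3a), Eif3e and Eif3m from 9.69 to 24.5. Of the last 3, Eif3e and Eif3m have 61.8% and 82.2% of their windows elsewhere and Eif3s10 has 13.0%. Eif3j, a loosely bound subunit, had 0.839 and 1.15 in the G85R libraries, or about 53 and 77 estimated reads, while neither wild-type library listed it above 0. With a mean of 0.496 it was below the level tested, and any lower limit would be passed only through its G85R values, so no test is given. Because 92.0% of its windows occur elsewhere, its zeros and its low values are uncertain, and no fold is given.

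The eIF4 group holds the factor that was called. Eif4a1 was at 5.23 and 3.84 RPKM in the wild-type libraries and at 1.72 and 1.42 in the G85R libraries, about 270 and 211 against 81 and 71 estimated reads. Both G85R values were below both wild-type values, and the gene was 2.75-fold lower in G85R (log2 fold change -1.46, SE 0.21, limma adjusted p = 0.0462). Over 14 other fits the log2 fold change stayed between -1.68 and -1.10, while the adjusted p ran from 0.000969 to 0.468. Without wild-type replicate 1 the difference was -1.24 and the adjusted p 0.0842, so the call is lost without that library. As 86.5% of the windows have copies elsewhere, the part of those copies in this difference was not tested.

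Its paralogue Eif4a2, which does the same unwinding and is the form prominent in brain, was at 170 and 143 (wild-type) and 157 and 147 (G85R). The genotypes overlapped (log2 fold change -0.035, SE 0.12, limma adjusted p = 0.958). Eif4a2 was thus 32.4 and 37.1 times the level of Eif4a1 in wild-type and 91.2 and 103 times in G85R, and the sum of the eIF4A, eIF4B and eIF4H genes was 368 ± 7.10 and 369 ± 4.98 RPKM (SD, n = 2), since Eif4a1 is a small part of it. Eif4a3, the relative that marks exon junctions rather than scanning leaders, was at 15.3 and 15.6 in the wild-type pair and 22.1 and 21.6 in the G85R pair. Replicates of this gene were nearly equal and the genotypes stood apart, yet the difference of 0.50 (SE 0.11) did not pass in limma fitted by genotype alone, after adjustment over all genes (adjusted p = 0.127). It has 68.5% of its windows elsewhere. Eif4b and Eif4h, which stimulate the helicase, had log2 fold changes of 0.22 and -0.028, and Eif4h was among the most abundant factors at 153, 173, 154.5 and 165 (adjusted p = 0.963). The paper lists Eif4h among the genes with evidence of altered splicing in G85R mice only, which a gene-level RPKM cannot show.

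**Figure D3:**
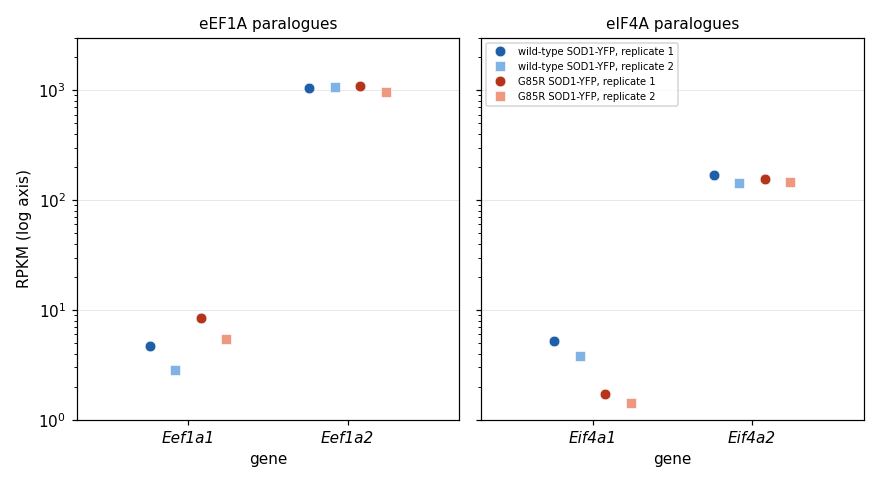
RPKM (log axis) of the eEF1A paralogues (left) and the eIF4A paralogues (right), 1 point for each library: blue for wild-type SOD1-YFP, red for G85R SOD1-YFP, circles for replicate 1 and squares for replicate 2. Eef1a2 (968 to 1096) and Eif4a2 (143 to 170) vary little over the libraries, Eef1a1 (2.86 to 8.48) is higher in G85R and Eif4a1 (1.42 to 5.23) is lower in G85R.

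Of the cap-binding proteins, Eif4e2, which binds the cap without recruiting eIF4G and is linked to repression, was the most abundant at 22.7, 21.0, 22.6 and 21.3 RPKM (log2 fold change 0.0091, limma adjusted p = 0.986). Eif4e, the initiating cap-binding protein, had a mean of 9.53 with 52.2% of its windows elsewhere. Eif4e3 was at 3.00 and 2.36 in wild-type against 3.40 and 3.12 in G85R, without overlap (0.28, SE 0.18, adjusted p = 0.656). The inhibitors that keep eIF4E from eIF4G were present at 9.22 (Eif4ebp3, the higher of 2 entries), 3.47 (Eif4ebp1) and 2.53 (Eif4ebp2) mean RPKM. Their log2 fold changes were -0.052, -0.0075 and 0.10. The other Eif4ebp3 entry was listed at 0 in all 4 libraries. A read was worth at most 0.0113 RPKM in the higher entry and 0.0508 in the other, so the higher entry covers a longer sequence. The level of Eif4ebp3 is therefore uncertain. Eif4e1b, a germ-line form, had 0.0395 in one wild-type library, about 1 estimated read, and was listed at 0 in the rest. None of the 7 tested genes of this group was called, beside 0.642% of all tested genes. For 2 of them (Eif4e3 and the higher Eif4ebp3 entry) the genotypes did not overlap, beside 41.2%.

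The eIF4G scaffolds, which join the cap to the ribosome, were all well expressed. Eif4g1 was at 91.2 and 80.1 RPKM (wild-type) and 84.3 and 77.4 (G85R) (log2 fold change -0.082, SE 0.11, limma adjusted p = 0.877), and Eif4g2 at 87.1, 77.6, 78.5 and 78.1. Eif4g3 stood at 62.2 and 43.1 in the wild-type pair and 64.1 and 43.4 in the G85R pair, so that its replicates differed more than its genotypes (0.027, SE 0.23). Replicates also differed more than genotypes for Eif5b, the GTPase of subunit joining, at 13.1 and 5.52 against 12.3 and 5.61 (-0.035, SE 0.46, the largest error of the family).

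Eif5, which makes eIF2 hydrolyse its GTP, was at 71.8, 61.1, 71.4 and 75.4 (0.15, SE 0.11, limma adjusted p = 0.722), and Eif6, which keeps the ribosomal subunits apart, had a mean of 51.5 (-0.097). Eif5a, the hypusine-carrying factor that helps the ribosome past difficult peptides, was at 161 and 138 in wild-type against 177 and 155 in G85R with overlap (0.15, SE 0.12, adjusted p = 0.719), and was 3.77 to 5.36 times its paralogue Eif5a2 over the 4 libraries. None of these genes had genotypes that stood apart, beside 41.2% of all tested genes.

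Elongation was dominated by Eef1a2. Wild-type mice gave 1054 and 1074 RPKM and G85R mice 1096 and 968 RPKM, which ranked the gene 21 among all 27189 entries by mean level. The genotypes overlapped and their difference was smaller than its error (log2 fold change -0.047, SE 0.098, limma adjusted p = 0.932). Eef1a1 was at 4.68 and 2.86 (wild-type) and 8.48 and 5.40 (G85R), about 245, 159, 405 and 274 estimated reads. Both G85R values were above both wild-type values, but the highest wild-type and the lowest G85R value were near each other, and the difference of 0.87 (SE 0.29) did not pass in limma fitted by genotype alone (adjusted p = 0.330). It was 0.52 without wild-type replicate 2, 0.55 without G85R replicate 1, and 1.19 to 1.21 without either of the others.

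The Eef1a2 RPKM was 225 and 375 times that of Eef1a1 in wild-type and 129 and 179 times in G85R. On the log2 scale the ratio was 8.18 ± 0.52 (SD, n = 2) in wild-type and 7.25 ± 0.33 in G85R, a difference of -0.93. An exact permutation test, two-sided, gave p = 0.333, which is the smallest p that 2 libraries against 2 allow. The size of the ratio depends on the copies of Eef1a1. When each RPKM was divided by the share of windows without another copy (a calculation chosen after seeing the data), the level that the RPKM would stand for if every read of a copied window were lost, Eef1a1 was at 71.0, 43.4, 128 and 81.8 and Eef1a2 stayed as above. Eef1a2 remained the higher paralogue in every library on that scale too.

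The sums of astrocyte and microglial genes were higher in both G85R libraries than in both wild-type libraries, most of all in G85R replicate 1. The astrocyte list, with all 6 genes found and none at 0, summed to 33.8 and 37.1 RPKM in wild-type and to 124 and 49.1 in G85R. Gfap, at 11.5, 17.1, 91.9 and 28.4, was the largest part of both G85R sums. In G85R replicate 2 Aqp4, Slc1a3 and Gja1 (2.78, 1.24 and 8.92) lay between the wild-type values. Those were 2.79, 1.35 and 10.3 in wild-type replicate 1 and 1.84, 0.990 and 8.43 in wild-type replicate 2. In the same G85R library Aldh1l1 (2.97) was below both wild-type values (3.25 and 4.06), and Slc1a2 was slightly above both (4.718 against 4.655 and 4.636). The 7 microglial genes, all found and none at 0, summed to 13.95 and 15.7 in the wild-type pair and 33.5 and 16.7 in the G85R pair, and the 6 oligodendrocyte genes to 860, 807, 1027 and 786. G85R replicate 1, which has the highest Eef1a1, has the highest sum of all 3 lists, and their part in the Eef1a1 values was not tested. Without that library the log2 ratio of Eef1a2 to Eef1a1 differed by -0.70.

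The nucleotide exchange factors of eEF1A followed a mixed pattern of level but not of genotype. Eef1b2 was steady at 115, 119, 120.5 and 121 RPKM. Its genotypes did not overlap but differed by only 0.047 (SE 0.092, limma adjusted p = 0.926). Eef1d had a mean of 32.3 and Eef1g of 1.26, although the 3 proteins work in 1 complex, and Eef1g has 75.6% of its windows elsewhere. Eef2 was at 233 and 327 in wild-type against 256 and 260 in G85R, the G85R values lying inside the wild-type range (-0.096, SE 0.16, adjusted p = 0.904). Eef2k, the calcium- and calmodulin-dependent kinase that switches eEF2 off, was at 20.8 and 17.6 (wild-type) and 15.5 and 10.3 (G85R), lower in both G85R libraries. The difference of -0.59 (SE 0.20) did not pass in limma fitted by genotype alone (adjusted p = 0.346). It was -0.30 without G85R replicate 2 and -0.88 without G85R replicate 1, and no window of this gene occurs elsewhere.

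The entries Eif2c1 to Eif2c4 are older symbols of the Argonaute genes, which carry small RNAs and are no translation factors in the strict sense. They were low, with mean RPKM of 1.81, 0.827, 0.505 and 0.399. Only Eif2c1 reached the tested level, at 1.64, 2.06, 2.10 and 1.47 with overlapping genotypes (log2 fold change -0.063, SE 0.24, limma adjusted p = 0.964).

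Members with many copied windows were read at lower levels than the rest. The 10 tested members with at least 50% of windows elsewhere had a median mean level of 7.44 RPKM (1.26 to 33.6), the 12 with 10% to 50% a median of 70.0, and the 31 with under 10% a median of 44.5. Over the 58 members above 0, Spearman's rho between the copied share and the mean RPKM was -0.32, as a description of genes that share the same 4 libraries. The 31 members with under 10% held 0 calls, where the background is 0.642%, and 8 without overlap between genotypes, where it is 41.2%, and their median log2 fold change was 0.0023.

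**Figure D4:**
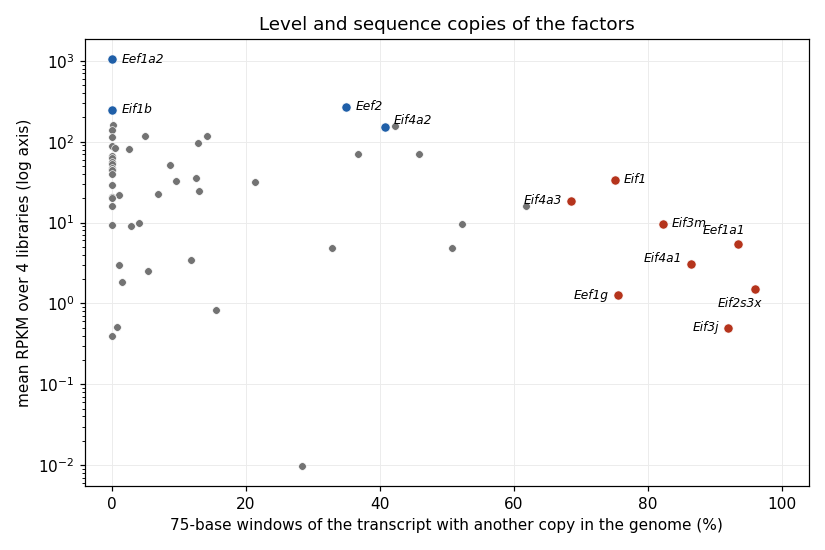
Mean RPKM over the 4 libraries (log axis) against the percent of 75-base windows of the transcript that occur elsewhere in the genome with at most 2 mismatches, 1 point for each of the 58 members above 0. Named members are red at 50% or more and blue below. The red points lie at 33.6 RPKM (Eif1) or lower, while Eef1a2, at 0%, is at 1048 RPKM and Eef2, at 35.0%, at 269 RPKM.

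Genes that act on the factors or in the same steps had no call. Of 50 such genes 49 were tested and 0 were called by limma, beside 0.642% of all genes, with 3 at an unadjusted p under 0.05 where the background is 11.0%, 21 higher and 28 lower in G85R and their median being -0.029 on the log2 scale. The log-linear test called 0 of them too. The genotypes did not overlap for 24 of the 49, beside 41.2% of all tested genes. The 7 genes of the eIF2 stress pathway had a median of -0.084, with 3 higher and 4 lower, and 5 of them did not overlap. Eif2ak1, the most abundant of the eIF2 kinases, was at 40.0 and 39.4 RPKM in the wild-type pair and 34.5 and 33.6 in the G85R pair (-0.22, SE 0.099, limma adjusted p = 0.478). Eif2ak4, the kinase that senses uncharged tRNA, was at 3.90 and 4.20 RPKM in the wild-type pair and 2.97 and 2.95 in the G85R pair (-0.44, SE 0.15, adjusted p = 0.341). Ppp1r15b, the constitutive eIF2 phosphatase subunit, was at 5.70 and 7.55 against 4.34 and 4.49 (-0.56, SE 0.17, adjusted p = 0.285). In the other direction, the kinases Eif2ak3 (9.69 and 9.50 against 11.5 and 10.6) and Eif2ak2 (3.65 and 3.76 against 4.08 and 4.13) were higher in G85R without overlap, by 0.20 (SE 0.12) and 0.14 (SE 0.14), and were not called. Atf4, whose mRNA is translated when eIF2 is phosphorylated, was at 92.3, 83.0, 91.8 and 86.0 (0.022, SE 0.10).

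In the 9 genes of the mTORC1 and S6 kinase group, which controls the eIF4E-binding proteins and Eef2k, the median was -0.019. Tsc2, an inhibitor of this pathway, was at 46.6 and 49.3 in wild-type against 61.3 and 57.1 in G85R (0.30, SE 0.10, adjusted p = 0.341). Mtor itself was at 19.6, 20.2, 18.6 and 18.3 (-0.11, SE 0.11). The 8 further elongation genes, among them the Dph enzymes that make the diphthamide of eEF2, had a median of -0.18 with 1 higher and 7 lower. Medians were 0.17 for reinitiation and recycling (4 genes), 0.066 for regulators of eIF4F and poly(A)-binding proteins (10 tested of 11), -0.048 for termination (3), 0.045 for the enzymes of eIF5A hypusine (2) and -0.079 for mitochondrial counterparts (6).

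The tissue matched its label in the markers measured. All 6 motor neuron genes (Chat, Slc18a3, Slc5a7, Isl1, Mnx1 and Prph) were above 0 in every library and summed to 1370 and 1642 RPKM in wild-type mice and to 1191 and 1452 in G85R mice. Chat (log2 fold change -0.36), Prph (-0.26) and Mnx1 (-0.18) were lower in G85R without overlap, where 41.2% of all tested genes did not overlap. Isl1 (-0.24), Slc18a3 (-0.14) and Slc5a7 (0.041) had overlapping genotypes. None of the 6 motor neuron genes was called, and their part in the values above was not tested. Oligodendrocyte RNA was also present in every library, as given above. The 4 endothelial genes summed to 7.78 and 8.88 (wild-type) and 6.89 and 6.72 (G85R). The red blood cell genes, 3 of 5 found, summed to 1.82 and 2.10 in the wild-type pair and 11.5 and 10.8 in the G85R pair, a difference in both G85R libraries whose part in the values above was not tested. The libraries held an estimated 21560318 to 25186594 reads, and 1 read was worth a median RPKM of 0.0195 to 0.0226.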

How the data were processed

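Polyadenylated RNA of laser-captured motor neurons was sequenced in 4 libraries as 75-base single-end reads. The authors mapped reads with Bowtie 0.12.3 (version from the submitters' processing notes) to mm9 and a splice junction database and quantified UCSC gene clusters with Cufflinks. The deposited values are RPKM, scaled by uniquely mapped reads, and RPKM after 1 read was added to every gene. The RPKM of 1 read is the difference of both. Reads estimated from it are not exact counts, so no counting intervals were computed, and n is small. How reads with several matches were treated is not given in the sources used here.

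Libraries were grouped by genotype from their labels. log2(RPKM + 0.1) was fitted by genotype with limma (version 3.58.1, R version 4.3.3, empirical Bayes moderation with a trend on level) for genes whose mean RPKM reached 1. On this scale the change of low genes is understated. Calls needed an adjusted p under 0.05 (Benjamini-Hochberg, all tested genes). The ratio of Eef1a2 to Eef1a1 was compared with an exact permutation test. A log-linear Poisson likelihood ratio test, other filters, pseudocounts, scalings, a replicate block and leaving out each library were alternatives. On simulated data for this comparison (11530 genes, 200 changed 4-fold), limma called 200 of the changed genes and 13 of the others. Each simulated gene was given the smoothed spread for its level, and libraries of the same replicate number shared nothing. No tested member changed by as much as 4-fold (at most 2.75-fold, Eif4a1), so the simulation does not show how many changes of the size seen here would be found. The longest coding transcript of each gene in the GENCODE annotation was cut into 75-base windows and searched in NCBIM37. This transcript can differ from the sequence of the deposited entry. That of Eef2 (3098 bases) is longer than that of Eef1a2 (2084 bases), yet 1 read was worth more RPKM in Eef2 (at most 0.0522 against 0.0183). Copied shares may therefore not describe the measured part of such genes. Other software was scipy 1.17.1, pandas 2.3.3, numpy 2.4.6 and matplotlib 3.10.9 under Python 3.11.15.

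The members, the lists and the tests were chosen with earlier results of these data known. Genes named with full statistics were Eef1a1, Eef1a2, Eef2, Eef2k, Eif2s3x, Eif2s3y and Eif4h, the most abundant tested member of each complex, every call, the 5 largest increases and 5 largest decreases without overlap between genotypes, and members listed at 0 in both libraries of one genotype but not of the other. Other genes are given as examples chosen after their values were seen. Xist was not analysed here. No p is adjusted over the members alone, and no test of a gene list was run.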

Additional observations from a re-analysis of the deposited data

How the results depend on the processing

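The count of members called was 1 (Eif4a1) and moved in either direction. It was 2 at a minimum mean RPKM of 0.1 (Eif3j added, a gene listed at 0 in both wild-type libraries that passes this limit only through its G85R values) and 0 at a minimum of 5 (which leaves Eif4a1 out of the test), with no filter on low values, with quantile normalization, with eBayes without trend, with the log-linear test, and among members with under 10% of windows copied, an alternative chosen after seeing the data. Leaving out 1 library gave 0 to 1, with 0 without wild-type replicate 1. The adjusted p of Eif4a1 was 0.468 without a filter, 0.0687 after quantile normalization and 0.0625 without trend in limma. The number of genes called over the whole table was 74, and 17 at a minimum of 5, 40 after quantile normalization, 49 without trend, 112 without a filter and 188 without G85R replicate 2.

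With the replicate block the members called were 4, Eef1a1 (limma adjusted p = 0.00535), Eef2k (0.0144), Eif4a1 (0.000969) and Eif4a3 (0.0165), and 527 genes were called in all. The genotypes share replicate numbers, but nothing says what the libraries of a number share, and there are 2 pairs. Libraries of the same number were the closest across genotypes, with median absolute log2 differences over members of 0.091 and 0.11, against 0.14 and 0.18 for unlike numbers and 0.18 and 0.15 within a genotype. Replicate deviations of the genotypes correlated with Pearson's r of 0.71 over members and 0.22 over all tested genes, and replicates 1 and 2 stood in the same order in both genotypes for 39 members (73.6%) against 59.5% of all genes. The difference in the log2 ratio of Eef1a2 to Eef1a1 was -0.93 with the replicate block as well, and -1.30 to -0.56 leaving out 1 library.

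The median log2 fold change of the members was -0.0064 to 0.051 where 1 library was left out, above 0 in all but the fit without wild-type replicate 2. For 23 named genes, 340 alternative values gave 319 of the same direction and side of the threshold, 4 weaker, 3 stronger and 14 reversed. Those reversed had small changes. Eif2b5 was at 0.010 when scaled by the median ratio and at 0.0069 after quantile normalization, and the rest reversed where 1 library was left out, from -0.14 to 0.043 (Eef1a2), -0.34 to 0.15 (Eef2), -0.12 to 0.063 (Eif4h), -0.087 to 0.19 (Eif2a), -0.060 to 0.035 (Eif2b5), -0.046 to 0.064 (Eif4e2), -0.17 to 0.011 (Eif4g1) and -0.31 to 0.18 (Eif2c1). The 0 calls among partner genes and the 15 members without overlap kept to within 1.5 times. Depth and n = 2 limit what can be seen: differences of about the standard error, and levels near that of 1 read, cannot be read.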
